A study of Mus musculus with 15 samples.

Results

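The LPS response of RAW264.7 cells treated with a hydroxylated docosahexaenoyl ethanolamide (HDHEA) was measured on 12 of the 15 arrays of the series, chosen by their titles: 9 arrays of cells given lipopolysaccharide (LPS) together with 13-HDHEA, 16-HDHEA or both, and 3 arrays of cells given no LPS. RAW264.7 is an established mouse macrophage line. Cells were kept for 30 min with 5.0 µM 13-HDHEA (3 arrays), with 5.0 µM 16-HDHEA (3 arrays) or with 2.5 µM of each (3 arrays). They were then given 1.0 µg/mL LPS. The cells without LPS (3 arrays) had vehicle (ethanol) and no HDHEA. Ethanol at 0.1% and the 30 min preincubation were common to all 12 arrays. RNA was taken after 24 h. The 2 sides differ both in LPS and in HDHEA, so the parts of the 2 agents in a difference cannot be told apart within this comparison. Each replicate number is 1 of 3 experiments with an identifier of its own in the labels, and every array with HDHEA was set against the no LPS array of its experiment. The 3 arrays with LPS and vehicle entered no difference from no LPS and were used only where vehicle is named.

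LPS is a surface glycolipid of Gram-negative bacteria. Macrophages sense it with Tlr4, which together with Cd14 and Ly96 binds it and signals through 2 branches: the adaptor Myd88, which leads to NF-kB and MAP kinases, and the adaptors Ticam1 and Ticam2, which lead to Irf3 and type I interferon. The response includes cytokines, chemokines and antimicrobial enzymes, and also the inhibitors that end it. 13-HDHEA and 16-HDHEA are positional isomers, which carry their hydroxyl group on different carbons of the docosahexaenoyl chain.

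All values are log2 expression of 1 probe set a gene, and all differences are LPS with any HDHEA minus no LPS, as the mean of the 3 treatments with experiment as a block in limma. A gene was called where its p, adjusted by Benjamini-Hochberg over the 15205 genes tested, was under 0.05. The arrays stood close together, with medians between 3.62 and 3.69 and correlations of 0.991 to 0.994 within groups, and the first principal component (68.6% of the variance) separated the no LPS arrays from the rest. All 9 macrophage markers with a probe set lay above the 40th percentile of at least 1 array, with a summed linear level of 21677 to 23327 with LPS and HDHEA against 19078 to 20888 without LPS, and 4 were higher and 2 lower. All 4 B cell markers lay below the 40th percentile on every array, and none of 5 dendritic and 4 epithelial markers was called. Of 8 neutrophil markers Camp and Ngp lay below that percentile on every array, the summed level was 78.5 to 105 with LPS and HDHEA against 53.7 to 67.2 without LPS, and S100a8 alone was called (difference 1.38). The fibroblast marker Dcn was called higher (0.33), and the T cell marker Cd4 (-0.50) and the endothelial marker Vwf (-0.41) lower, with no value of these 3 genes above 4.47 on any array. Dcn overlapped between the groups. Cd4 lost its call without the no LPS array of replicate 2 (difference -0.32, adjusted p = 0.0890 in limma) or of replicate 3 (-0.48, 0.0609). Other markers gained one in some alternatives. The fibroblast marker Pdgfra (0.52, not called) did so without the no LPS array of replicate 3 (1.04, adjusted p = 0.00273 in limma). The endothelial marker Pecam1 (0.44, adjusted p = 0.0607) did so without that of replicate 1 (0.74, 0.00105) and with all 15 arrays (0.44, 0.0431), among others. The dendritic markers Flt3 (0.25, 0.0187, median centring) and Zbtb46 (-0.27, 0.0449, without the 13-HDHEA arrays) also gained a call. So did the fibroblast marker Col1a1 (0.23, 0.0447, without the combined arrays) and the NK cell marker Ncr1 (0.32, 0.0280, without the no LPS array of replicate 1). The part of other cells in the results was not tested.

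In all, 6002 genes (39.5%) differed between LPS with any HDHEA and no LPS, of which 2663 were higher (17.5%) and 3339 lower (22%). Counts of calls in the gene lists below stand beside these shares, 17.5% higher and 22% lower. A change of at least 2-fold was found for 493 higher genes (3.24%) and 519 lower genes (3.41%). The 9 arrays with LPS and HDHEA lay wholly above the 3 no LPS arrays for 1961 of the higher genes (12.9% of genes tested) and wholly below them for 2561 of the lower ones (16.8%). Calls split as 44.4% higher, but as 56.8% higher (3488 higher and 2657 lower) when each array was centred on its median over the genes tested, which raised every difference by 0.07. Where 3 values of a gene are given, those with LPS and HDHEA are the lowest, median and highest of the 9 arrays, and those without LPS are replicates 1, 2 and 3. In RNA from whole cultures, fewer cells of a type and less RNA per cell cannot be told apart.

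Cytokines, acute-phase proteins and antimicrobial factors gave the largest increases. Il1a (Entrez gene 16175), which encodes an interleukin-1 cytokine, had a lowest, median and highest value of 11.92, 12.05 and 12.15 with LPS and HDHEA, against 3.06, 3.13 and 3.04 without LPS. Every array without LPS was below its 40th percentile, which lay at 3.16 to 3.22 on these arrays, and the change, taken from that percentile, was at least 470.4-fold (measured difference 8.97, SE 0.0592, adjusted p = 6.27e-13 in limma). Il1b (16176), the other classical interleukin-1 gene, stood at 12.13, 12.41 and 12.49 with LPS and HDHEA and at 3.58, 3.34 and 3.34 without LPS, a 491-fold difference. Saa3 (20210), an acute-phase serum amyloid gene, had 12.16, 12.31 and 12.63 with LPS and HDHEA, against 3.57, 3.42 and 3.74 without LPS (439-fold). The cytokine gene Il6 (16193) had 10.47, 10.74 and 10.94 with LPS and HDHEA, against 2.80, 2.31 and 2.56 without LPS, at least 189-fold higher. For these genes the 9 treated arrays lay close together and far above the arrays without LPS.

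**Figure D1:**
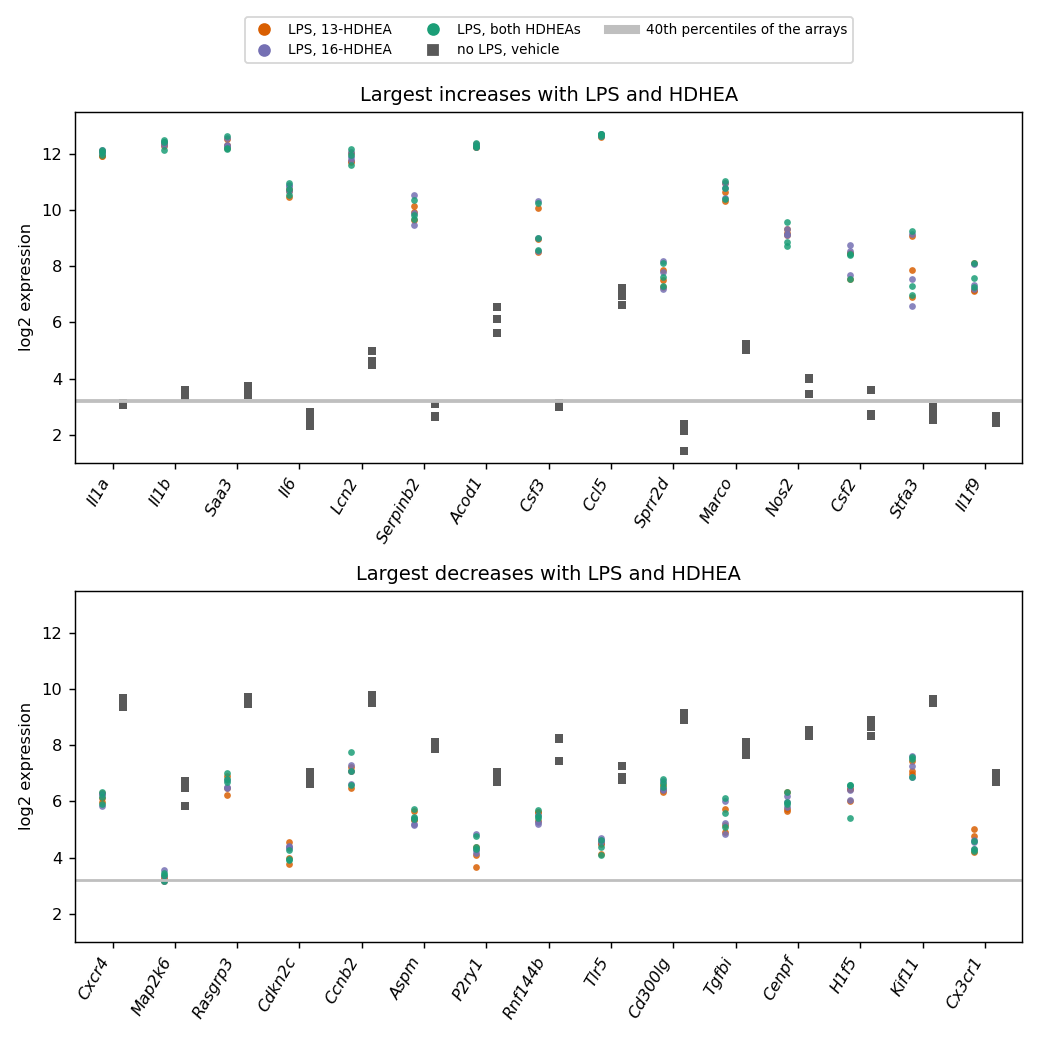
Log2 expression on each array for the 15 named genes with the largest increases (top) and decreases (bottom); coloured circles are the 9 arrays with LPS and 13-HDHEA, 16-HDHEA or both, grey squares the 3 no LPS arrays, and the grey band spans the 40th percentiles of the arrays (3.16 to 3.22). The circles and squares of every gene shown are apart, and the no LPS squares of Il1a, Il6, Serpinb2, Csf3, Sprr2d, Stfa3 and Il1f9 lie below the band.

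Lcn2, a lipocalin that takes up bacterial siderophores, was 146-fold higher (11.60, 11.90 and 12.17 with LPS and HDHEA, against 4.48, 4.62 and 4.98 without LPS). Serpinb2, an inhibitor of plasminogen activators, was at least 109-fold higher and Csf3, the granulocyte growth factor gene, at least 67.6-fold. Csf3 spread more among treated arrays than the genes above, at 8.50, 8.99 and 10.32. Acod1, whose enzyme makes itaconate, had 12.24, 12.28 and 12.38 with LPS and HDHEA, against 6.55, 6.11 and 5.62 without LPS (73.2-fold). By measured difference, which chose the 15, there followed Ccl5, a chemokine gene (53.1-fold), and the epidermal envelope gene Sprr2d (at least 22.3-fold). The scavenger receptor gene Marco was 47.4-fold and Nos2, the inducible nitric oxide synthase, 40.1-fold higher. The last of the 15 were the growth factor gene Csf2 (at least 32.8-fold), the cysteine protease inhibitor gene Stfa3 (at least 25.6-fold) and Il1f9, an interleukin-36 gene (at least 20.8-fold). For Csf2 a second, dimmer probe set differed by only 0.80, and Sprr2d and Stfa3 have near-identical neighbours whose transcripts may share probes, so their values are uncertain.

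The 15 largest decreases were smaller than these increases, and they included receptor genes and cell division genes. Cxcr4 (12767), the receptor of the chemokine Cxcl12, had 5.84, 6.16 and 6.35 with LPS and HDHEA, against 9.35, 9.598 and 9.69 without LPS, and was 10.6-fold lower (difference -3.41, SE 0.123, adjusted p = 5.4e-08 in limma). Map2k6, a kinase that activates p38, had 3.16, 3.32 and 3.56 with LPS and HDHEA, against 5.84, 6.48 and 6.74 without LPS, so that it lay close to the 40th percentile with LPS and HDHEA. Rasgrp3, an exchange factor that activates Ras and Rap proteins, was 7.47-fold lower. Other receptors among the 15 were the ADP receptor gene P2ry1 (-2.51), the flagellin receptor gene Tlr5 (-2.50), Cd300lg (-2.46) and the fractalkine receptor gene Cx3cr1 (-2.35). The ubiquitin ligase gene Rnf144b (-2.51) and the matrix protein gene Tgfbi (-2.45) also fell. Cdkn2c, which encodes an inhibitor of cyclin D kinases, fell by 2.64, beside the mitotic genes Ccnb2, Aspm, Cenpf and Kif11 and the linker histone gene H1f5 (-2.63 to -2.35).

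Genes that sense LPS itself moved little beside these. Tlr4 had 6.86, 7.04 and 7.08 with LPS and HDHEA, against 7.42, 7.11 and 7.43 without LPS (difference -0.32, SE 0.064, adjusted p = 0.00293 in limma), and the call was lost without replicate 3 (adjusted p = 0.068). Its co-receptor Cd14 was among the highest transcripts and rose by 0.31, with 11.41, 11.49 and 11.56 in treated cells and 11.16, 11.15 and 11.20 without LPS. Further along the pathway, the adaptor gene Ticam2 of the interferon branch rose by 1.62 and Ikbke, a kinase that acts on interferon regulatory factors, by 1.64. Irak2, a kinase that sustains Myd88 signals, rose by 1.14 and Ikbkg, the scaffold of the IkB kinase complex, by 0.45, whereas Tab1, a partner of the kinase Map3k7, fell by 0.73. Of 18 genes of the LPS receptor, its adaptors and kinases, 10 rose and 5 fell (median 0.27, against 0.00084 over all genes tested), shares of 55.6% and 27.8% beside the 17.5% and 22% of all genes. The 5 lower genes became 2 without replicate 3, and 3 without replicate 1 or replicate 2, without the no LPS array of replicate 1 or of replicate 3, without replicate 3 of 13-HDHEA or of 16-HDHEA, and without the block. They were also 3 under median centring, with no filter and with each experiment reduced to 1 mean. Without all 13-HDHEA arrays or all 16-HDHEA arrays they were 3 too.

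Receptors for other microbial molecules went both ways. Among 20 such genes 12 rose and 7 fell. Clec4n, which encodes the fungal lectin receptor Dectin-2, had 9.17, 9.77 and 9.90 with LPS and HDHEA, against 6.21, 5.40 and 6.25 without LPS (12.9-fold higher), whereas Clec7a, which encodes the beta-glucan receptor Dectin-1, had 5.08, 5.36 and 6.02 with LPS and HDHEA, against 7.70, 7.61 and 7.87 without LPS (4.88-fold lower). These lectin receptors thus stood on opposite sides of no LPS, and the groups overlapped for neither. Clec4e, the Mincle gene, was high without LPS (11.16, 11.11 and 11.05) and rose by 1.23. Tlr1, which pairs with Tlr2 to bind bacterial lipopeptides, rose by 2.14. Tlr13, a mouse receptor for bacterial ribosomal RNA, fell by 1.06 and Tlr5 by 2.50.

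The NF-kB family and its inhibitors rose as a group, 11 of 15 genes with a median of 1.08, while 2 fell. Nfkbiz, an atypical IkB that acts in the nucleus, had 9.0, 9.11 and 9.38 with LPS and HDHEA, against 5.47, 5.03 and 5.76 without LPS (difference 3.73, SE 0.121, adjusted p = 3.28e-08 in limma). Tnfaip3, the A20 gene that ends NF-kB signals by editing ubiquitin, rose by 2.42, its partner Tnip1 by 1.28, the nuclear IkB protein gene Bcl3 by 1.57 and Nfkbib by 1.36. The 2 lower genes became 1 without the no LPS array of replicate 1 or of replicate 2. They were also 1 under median centring, with each experiment reduced to 1 mean and without the 16-HDHEA arrays. Of 25 genes that end signals or degrade messenger RNA, 18 rose and 2 fell. Socs3, an inhibitor of cytokine receptors, had 8.69, 8.86 and 8.98 with LPS and HDHEA, against 3.94, 3.59 and 4.01 without LPS, and its second probe set differed by 3.83 rather than 4.99. The ribonuclease gene Zc3h12a rose by 3.20, the inhibitory kinase gene Irak3 by 2.55 and Usp18, which removes the ubiquitin-like protein Isg15, by 2.22. Among 18 stress and MAP kinase genes 8 rose (44.4%) and 3 fell (16.7%), beside 17.5% and 22% of all genes. The 3 Pim survival kinases were higher (Pim2 1.60, Pim1 1.54, Pim3 0.96), with Map3k8, the Tpl2 kinase gene, at 0.72. A dimmer second probe set of Pim1 differed by only 0.45. Without replicate 3, 1 of these 3 lower genes was called.

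Of 29 cytokine genes 20 were higher, and of 17 chemokine genes 14, with medians of 1.06 and 2.00. Tnf stood at 12.40, 12.43 and 12.54 with LPS and HDHEA and was high without LPS too, at 9.95, 9.86 and 10.08 (difference 2.50). Osm, an interleukin-6 family cytokine gene, had 9.06, 9.29 and 9.49 with LPS and HDHEA, against 6.17, 6.01 and 6.44 without LPS. Il10, which encodes a cytokine that restrains macrophages, was low and overlapped between the groups, at 3.27, 3.58 and 3.77 with LPS and HDHEA and 3.95, 3.61 and 4.19 without LPS. Its difference of -0.36 passed (adjusted p = 0.0112 in limma), but not without the no LPS array of replicate 1 (adjusted p = 0.0567) or of replicate 3 (0.0865), nor without the 13-HDHEA arrays (0.0914) or with each experiment reduced to 1 mean (0.0521). It was 1 of 2 lower cytokine genes, which became 1 without either of those no LPS arrays. Il1rn, the interleukin-1 receptor antagonist gene, rose by 1.77. Among chemokines, the monocyte attractant Ccl7 had 11.12, 11.30 and 11.66 with LPS and HDHEA, against 6.60, 6.37 and 6.68 without LPS, and Cxcl10, an interferon-inducible T cell attractant, had 10.33, 10.92 and 11.09, against 6.74, 6.31 and 6.54 without LPS. Ccl2 and Ccl4 each rose about as much as the median chemokine gene (2.02 and 2.001).

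Receptors for these factors were split, 17 of 33 higher (51.5%) and 8 lower (24.2%), beside 17.5% and 22% of all genes. The chemerin-binding receptor gene Ccrl2 had 9.79, 10.11 and 10.21 with LPS and HDHEA, against 6.43, 7.09 and 6.61 without LPS. Il4ra, a chain of the interleukin-4 and interleukin-13 receptors, rose by 2.43, the tumour necrosis factor receptor gene Tnfrsf1b by 2.12 and Il15ra, which presents interleukin-15, by 1.36. Csf1r, the receptor for macrophage colony-stimulating factor, stood at 11.28, 11.41 and 11.50 with LPS and HDHEA and 11.53, 11.55 and 11.74 without LPS, and its call (-0.20, adjusted p = 0.0223 in limma) was lost without the no LPS array of replicate 2 (adjusted p = 0.0598) or replicate 3 (0.127) and under median centring (0.0986).

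Interferon-stimulated genes were higher in 39 of 40 cases (97.5%, beside 17.5% of all genes), with a median of 1.55. The remaining gene, Ifit3, stood at 4.11, 4.87 and 5.14 with LPS and HDHEA and 5.09, 4.15 and 4.97 without LPS. Oasl1, an oligoadenylate synthetase-like gene that limits Irf7 translation in mouse, had 9.55, 9.67 and 9.83 with LPS and HDHEA, against 5.69, 6.25 and 5.79 without LPS (difference 3.75, SE 0.0865, adjusted p = 3.87e-09 in limma). Ifit1, which binds foreign RNA, rose by 3.59, the nucleic acid sensor gene Zbp1 by 3.44, and the mitochondrial nucleotide kinase gene Cmpk2 by 2.60. Trim30d was at least 6.29-fold higher. The antiviral gene Rsad2 (viperin) rose by 3.90. Its promoter is shown because it carries the interferon response letters that 13 of 26 members with a single promoter window hold, in RefSeq sequence of build GRCm38.p6, on the minus strand of chr12:26456453-26456702, with the match in capitals.
Rsad2: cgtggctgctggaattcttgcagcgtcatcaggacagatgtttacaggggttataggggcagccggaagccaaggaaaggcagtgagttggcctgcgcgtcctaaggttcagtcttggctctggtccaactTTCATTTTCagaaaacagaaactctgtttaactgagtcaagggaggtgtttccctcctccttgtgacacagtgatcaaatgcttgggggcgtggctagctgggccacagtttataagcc
The capitals are GAAANNGAA read from the opposite strand, and they start 119 bases before the transcription start.

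Of 18 interferon regulatory and STAT genes 12 rose and 3 fell. The lower count was 1 without any single one of the no LPS arrays, under median centring and without the block. Irf7, the factor that amplifies type I interferon, had 10.98, 11.08 and 11.28 with LPS and HDHEA, against 8.24, 8.72 and 8.16 without LPS, and the cytokine receptor kinase gene Jak2 had 10.31, 10.64 and 10.75, against 7.96, 7.98 and 7.88 without LPS. The transcription factor genes Batf2 (1.28), Stat2 (1.27) and Stat3 (0.70) rose. All 12 tested guanylate-binding protein and immunity GTPase genes, whose products attack the vacuoles of intracellular microbes, were higher, with a median of 1.67. Gbp7 had 10.03, 10.32 and 10.54 with LPS and HDHEA, against 5.85, 6.24 and 6.04 without LPS (19.3-fold). Of 16 genes of MHC class I presentation 15 were higher and none lower, with a median of 0.65: the peptide transporter genes Tap1 (1.38) and Tap2 (0.95), the chaperone gene Tapbp (0.90), the immunoproteasome subunit gene Psmb10 (0.67) and the class Ib gene H2-T23 (1.86).

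Costimulatory genes rose alongside. Of 16 class II and costimulation genes 10 were higher and 2 lower. The lower count was 0 without replicate 3 and 1 without the no LPS array of replicate 1 or of replicate 3. It was 1 under median centring too. Cd40 had 8.36, 8.63 and 8.92 with LPS and HDHEA, against 5.27, 5.67 and 5.20 without LPS. The B7 genes Cd80 (3.34) and Cd86 (2.48), the checkpoint ligand gene Cd274 (3.56) and Icosl (1.68) rose as well.

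**Figure D2:**
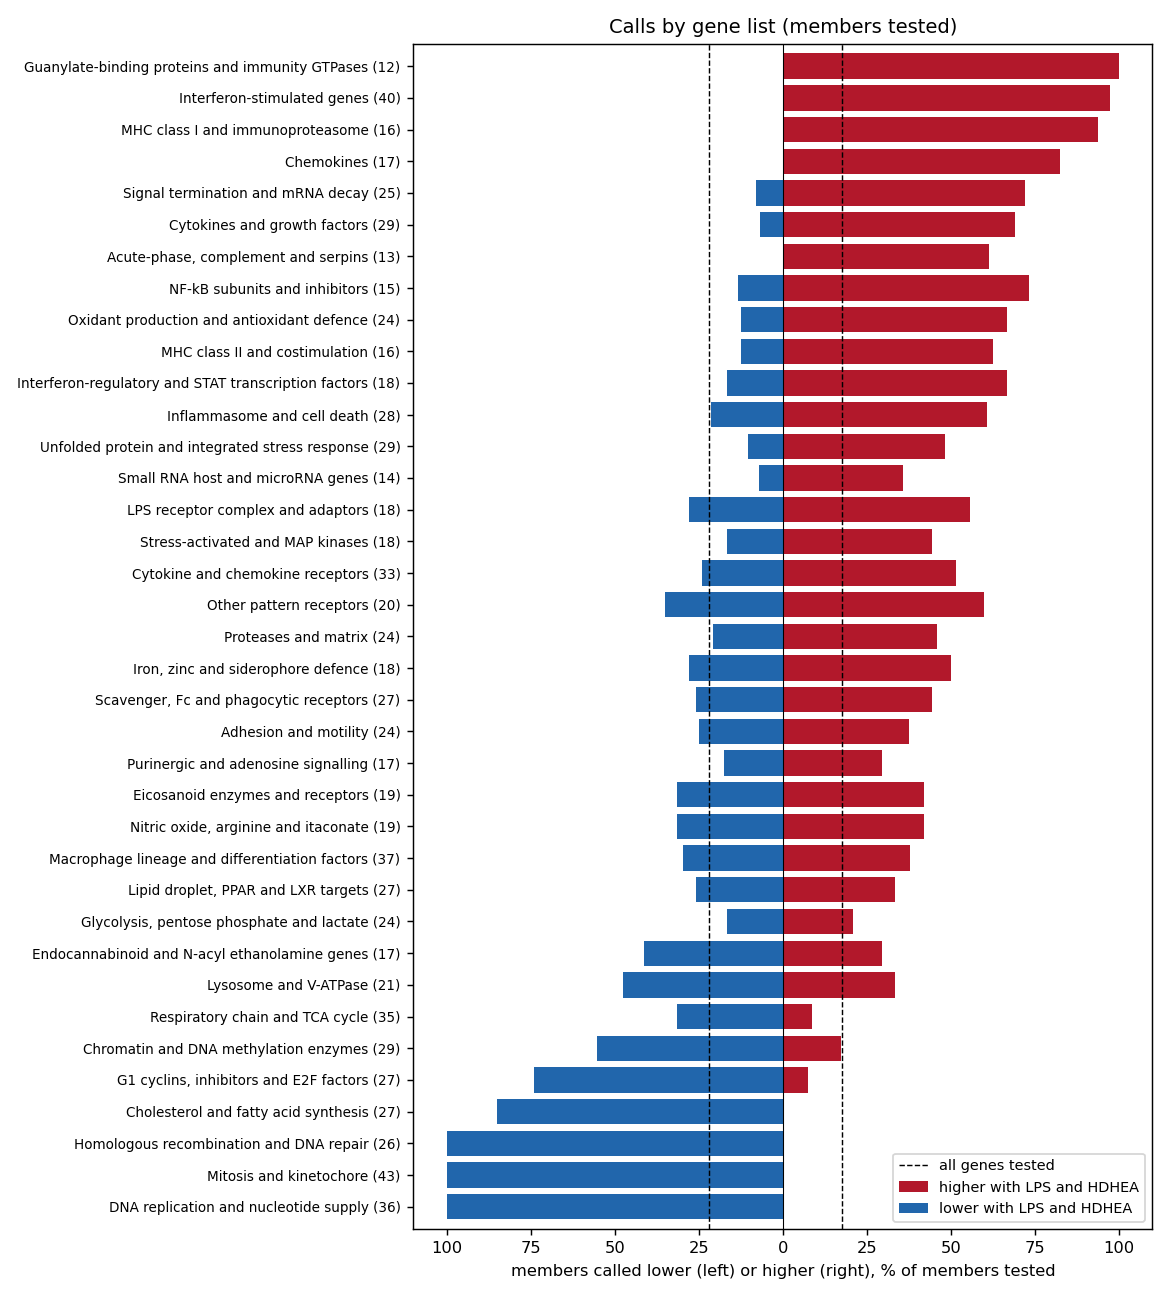
Share of tested members called higher (right, red) or lower (left, blue) with LPS and HDHEA in each of the 37 gene lists, with the number of members tested in brackets; the dashed lines mark 17.5% higher and 22% lower, the shares over all 15205 genes tested. Immunity GTPases and interferon-stimulated genes stand at the top, and replication, mitosis and repair genes, with all members lower, at the bottom.

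Nitric oxide, arginine and itaconate genes were mixed (8 of 19 higher, 42.1%, and 6 lower, 31.6%). The arginine transporter gene Slc7a2 had 8.99, 9.28 and 9.34 with LPS and HDHEA, against 5.997, 5.80 and 5.93 without LPS (10.0-fold higher). Gch1, whose enzyme starts synthesis of a nitric oxide synthase cofactor, rose by 1.43 and Odc1, the first enzyme of polyamine synthesis, by 1.17. Among 24 oxidant and antioxidant genes 16 were higher and 3 lower, or 1 lower without replicate 1 or replicate 3. The cystine transporter gene Slc7a11 rose by 3.59 and the mitochondrial superoxide dismutase gene Sod2 by 2.13. The 2 subunits of the enzyme that starts glutathione synthesis moved apart: the modifier gene Gclm rose by 0.66, with 9.83, 9.98 and 10.09 in treated cells and 9.32, 9.22 and 9.39 without LPS, and the catalytic gene Gclc fell by 0.72, with 8.30, 8.41 and 8.50 in treated cells and 9.07, 9.12 and 9.19 without LPS. Hmox1, the inducible heme oxygenase gene, rose by 0.77.

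Metal-handling genes were higher in 9 of 18 cases (50%) and lower in 5 (27.8%). Beside Lcn2, the copper oxidase gene Cp (ceruloplasmin), which loads iron for transport, had 7.98, 8.67 and 9.08 with LPS and HDHEA, against 4.12, 4.44 and 4.53 without LPS (18.9-fold higher). The metal transporter genes Slc11a2 (1.10) and Slc11a1 (0.68) and the iron-sensing ubiquitin ligase gene Fbxl5 (0.78) rose. Of 13 acute-phase, complement and serpin genes 8 rose and none fell. Cfb, complement factor B, had 5.65, 6.51 and 7.15 with LPS and HDHEA, against 3.80, 3.71 and 3.58 without LPS, and haptoglobin (Hp) rose by 0.63. The higher count was 5 without the no LPS array of replicate 1 or of replicate 2, and Serpinb9 (0.43) lost its call without replicate 3 (adjusted p = 0.0911).

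Lipid mediator genes showed no common direction. Of 19 eicosanoid genes 8 rose (42.1%) and 6 fell (31.6%). Ptgs2, the inducible cyclooxygenase, had 12.26, 12.32 and 12.50 with LPS and HDHEA, against 8.06, 7.30 and 7.59 without LPS (difference 4.71). The receptor genes for prostaglandin E2 (Ptger2, 2.50) and prostacyclin (Ptgir, 0.94) and Pla2g7, which degrades platelet-activating factor, (1.45) rose. Alox5, the lipoxygenase of leukotriene synthesis, had 5.40, 5.88 and 5.99 with LPS and HDHEA, against 7.63, 7.68 and 8.19 without LPS, and its second probe set differed by -1.43 rather than -2.09. HDHEAs are N-acyl ethanolamines. Of 17 genes of that lipid class and of endocannabinoids 5 rose (29.4%) and 7 fell (41.2%). With the filter at the 60th percentile, which can take dim members out of the test, 3 rose. The cannabinoid receptor gene Cnr2 had 5.66, 5.96 and 6.10 with LPS and HDHEA, against 7.29, 7.37 and 7.46 without LPS (difference -1.45, SE 0.0975, adjusted p = 2.25e-06 in limma). Enzymes that make and degrade the endocannabinoid arachidonoylglycerol fell too, the synthase gene Daglb (-1.39) and the hydrolase gene Abhd12 (-0.83), and so did Ptpn22, a phosphatase gene on that list (-1.15). Gpr18, an orphan receptor gene, had 8.40, 8.58 and 8.81 with LPS and HDHEA, against 5.26, 5.49 and 5.30 without LPS (9.51-fold higher). Among 17 purinergic and related receptor genes 5 rose (29.4%) and 3 fell (17.6%), beside 17.5% and 22% of all genes. Hcar2, the niacin receptor gene, rose by 2.05, Pde4b, which degrades cyclic AMP, by 1.15 and the lipid receptor gene Gpr132 by 1.03. Adenosine deaminase (Ada) fell by 1.03.

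Surface receptors for particles, adhesion genes and proteases held some of the larger changes without a shared direction. Of 27 scavenger, Fc and phagocytic receptor genes 12 rose (44.4%) and 7 fell (25.9%), beside 17.5% and 22% of all genes. The Fc receptor gene Fcgr1 was at 1.52, the paired receptor gene Pilra at 1.88 and Trem3 at 2.21. Adgre1, a classical surface marker gene of mouse macrophages, had 10.29, 10.48 and 10.78 with LPS and HDHEA, against 5.92, 5.87 and 6.34 without LPS (22.5-fold higher), and Mertk, a receptor for apoptotic cells, rose by 1.43. Of 24 adhesion and motility genes 9 rose (37.5%) and 6 fell (25%). The integrin genes Itgal (1.56) and Itga5 (0.99) and the actin regulators Marcks (1.04) and Vasp (0.94) rose, and Rgs2, which shortens G protein signals, was 4.42-fold lower with 8.41, 8.90 and 9.11 in treated cells and 10.75, 11.07 and 10.93 without LPS. Of 24 protease and matrix genes 11 rose (45.8%) and 5 fell (20.8%). The gelatinase gene Mmp9 had 9.78, 10.19 and 10.31 with LPS and HDHEA, against 6.51, 6.80 and 6.73 without LPS, the collagenase gene Mmp13 rose by 3.02, Mmp25 by 1.92 and the urokinase receptor gene Plaur by 1.93.

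Of 37 transcription factor and lineage genes of macrophages 14 were higher (37.8%) and 11 lower (29.7%), beside 17.5% and 22% of all genes. Nr4a1, an orphan nuclear receptor gene, had 7.23, 7.76 and 8.34 with LPS and HDHEA, against 4.83, 4.28 and 4.52 without LPS. Egr1 (2.52), Junb (1.51) and Cebpb (1.15) rose, and the repressor gene Bcl6 fell by 1.90, with 6.04, 6.27 and 6.48 in treated cells and 8.18, 8.25 and 8.09 without LPS. The lower count was 6 without replicate 3 and 7 without the no LPS array of replicate 1 or of replicate 3.

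Genes of DNA replication and mitosis fell without exception among those tested. All 36 replication and nucleotide supply genes (100%, beside 22% of all genes) and all 43 mitosis and kinetochore genes were lower, with medians of -1.40 and -1.87. Mcm5, a subunit of the replicative helicase, had 8.98, 9.34 and 9.41 with LPS and HDHEA, against 10.74, 10.80 and 10.86 without LPS (difference -1.55, SE 0.0642, adjusted p = 1.17e-07 in limma). Its partner Mcm2 fell by 1.45, the helicase assembly gene Gins3 by 1.45, the polymerase gene Pola1 by 1.21 and Uhrf1, which carries DNA methylation through replication, by 1.68. Among mitotic genes, Ccnb2, a cyclin B gene, had 6.48, 7.09 and 7.77 with LPS and HDHEA, against 9.52, 9.80 and 9.66 without LPS. The centromeric histone gene Cenpa (-2.11), the spindle gene Nusap1 (-2.15) and the cytokinesis gene Anln (-1.97) fell. Of 27 G1 cyclin, inhibitor and E2F genes 20 fell and 2 rose. Ccnd1 (cyclin D1) had 8.10, 8.201 and 8.41 with LPS and HDHEA, against 10.25, 9.92 and 10.16 without LPS. The repressive E2F genes E2f8 (-2.31) and E2f7 (-1.99) and the pocket protein gene Rbl1 (-1.49) fell. The 2 higher genes, Ccnd2 (0.54) and the cell cycle inhibitor gene Cdkn1a (0.47), were picked after their values were seen, and 1 of them was called without the no LPS array of replicate 2 or without the block.

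All 26 tested genes of homologous recombination and DNA repair fell, with a median of -1.32. Exo1, a nuclease that trims broken ends, differed by -1.92, the ubiquitin ligase partners Bard1 and Brca1 by -1.81 and -1.64, and Fancd2, of crosslink repair, by -1.78. Psmc3ip, a cofactor of recombinases, differed by -1.13. Of 29 chromatin genes 16 fell (55.2%) and 5 rose (17.2%), beside 22% and 17.5% of all genes. The maintenance methyltransferase gene Dnmt1 had 9.599, 9.74 and 9.82 with LPS and HDHEA, against 10.97, 11.06 and 10.94 without LPS, and Ezh2, which writes the H3K27 methyl mark, fell by 1.44. Kdm6b, which removes that mark, rose by 1.68 (0.49 for a dimmer second probe set), and Tet2, which oxidises methylcytosine, rose by 1.29. The DNA-bending protein gene Hmgb2 fell by 1.38.

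Short promoter stretches, the 250 bases before the RefSeq start, were searched on both strands for 5 motifs in the 9633 tested genes that have exactly 1 such window. CCAAT, the letters bound by NF-Y, occurred in 51.6% of 339 genes at least 2-fold lower, 32.1% of 315 genes at least 2-fold higher and 35.9% of all. It occurred in 23 of 34 mitosis genes and 18 of 27 replication genes. TTTGAA, the cell cycle homology letters, occurred in 18.3%, 10.2% and 11.4%, and in 12 of 34 mitosis genes. E2F letters, TTTGGCGC or TTTCGCGC, which overlap where they are read from opposite strands, occurred in 4.72%, 0.635% and 1.14%, and in 5 of 27 replication genes. GAAANNGAA, letters of an interferon response element, occurred in 5.9% of the lower genes, 16.5% of the higher ones and 6.2% of all. GGGANTTCC, a kappaB form, occurred in 1.47%, 3.49% and 1.85%. The first promoter below is that of Ccnb2, which fell by 2.63 and holds CCAAT 3 times (chr9:70421555-70421804, minus strand), and the second is that of Mcm5, with overlapping E2F letters on both strands (chr8:75109259-75109508, plus strand). The third belongs to Tnip1, which rose by 1.28 and holds overlapping kappaB matches (chr11:54962941-54963190, minus strand). All are RefSeq sequences of build GRCm38.p6 on the strand of the gene. Capitals mark only the matches of the motif named for each promoter. Letters of the other motifs stay in lower case, such as CCAAT in Mcm5 and TTTGAA in Ccnb2.
Ccnb2: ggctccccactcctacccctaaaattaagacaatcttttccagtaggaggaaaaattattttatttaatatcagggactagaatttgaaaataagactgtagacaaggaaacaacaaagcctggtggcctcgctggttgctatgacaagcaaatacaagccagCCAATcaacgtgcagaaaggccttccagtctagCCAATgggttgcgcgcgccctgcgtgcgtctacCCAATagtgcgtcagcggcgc
Mcm5: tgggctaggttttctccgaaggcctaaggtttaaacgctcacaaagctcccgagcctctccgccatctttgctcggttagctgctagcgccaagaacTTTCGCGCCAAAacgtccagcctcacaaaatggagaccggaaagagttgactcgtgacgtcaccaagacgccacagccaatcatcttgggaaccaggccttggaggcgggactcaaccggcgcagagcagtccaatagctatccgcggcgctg
Tnip1: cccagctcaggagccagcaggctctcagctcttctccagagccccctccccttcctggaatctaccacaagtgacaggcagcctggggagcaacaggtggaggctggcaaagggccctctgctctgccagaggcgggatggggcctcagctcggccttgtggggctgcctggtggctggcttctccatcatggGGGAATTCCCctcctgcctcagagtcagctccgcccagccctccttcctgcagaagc
The 3 CCAAT matches of Ccnb2 start 87, 54 and 21 bases before the transcription start. A match is a description of the letters and not a measured binding site.

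**Figure D3:**
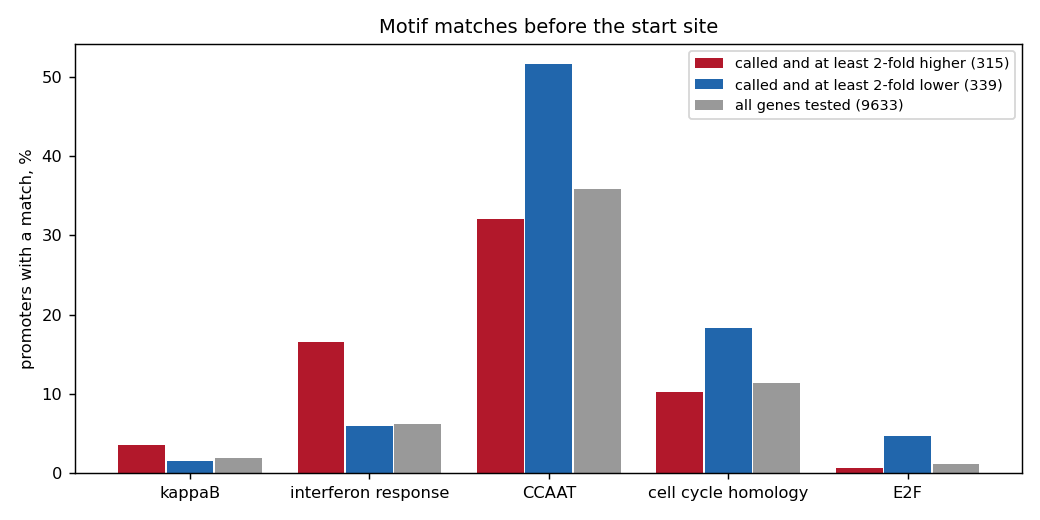
Share of promoters (vertical axis, %) that hold each of 5 motifs in the 250 bases before the start site, for genes at least 2-fold higher with LPS and HDHEA (red, 315), at least 2-fold lower (blue, 339) and all tested genes with 1 window (grey, 9633). The lower genes stand highest for CCAAT (51.6%), the cell cycle homology letters (18.3%) and E2F (4.72%), and the higher genes for the interferon response letters (16.5%) and kappaB (3.49%).

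Lipid synthesis fell in step but by less. Of 27 cholesterol and fatty acid synthesis genes 23 fell and none rose (85.2%, beside 22% of all genes), with a median of -0.48, and none of them fell by as much as 2-fold. Hmgcs1, an early enzyme of the sterol pathway, had 9.61, 9.72 and 10.03 with LPS and HDHEA, against 10.69, 11.001 and 10.42 without LPS. Dhcr7, its last enzyme, differed by -0.68, fatty acid synthase (Fasn) by -0.81, the desaturase gene Fads2 by -0.70 and the elongase gene Elovl5 by -0.61. Lipid storage and PPAR or LXR target genes were split, 9 of 27 higher (33.3%) and 7 lower (25.9%), beside 17.5% and 22% of all genes. Dgat2, the last enzyme of triglyceride synthesis, rose by 2.74, the nuclear receptor gene Ppard by 1.62 and the lipid droplet gene Hilpda by 1.29, whereas lipoprotein lipase (Lpl) fell by 1.14 and the ester hydrolase gene Nceh1 by 1.02. Of 21 lysosome genes 10 fell (47.6%) and 7 rose (33.3%). The galactosylceramidase gene Galc (-1.24), the lysosome regulator gene Tfeb (-0.75) and the acid lipase gene Lipa (-0.68) fell, and the acid glucosidase gene Gaa and the autophagy adaptor gene Sqstm1 rose by 0.67 each.

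Of 35 respiratory chain and TCA cycle genes 11 fell (31.4%, beside 22% of all genes), 3 rose (8.57%) and 21 did not pass. The lower count was 5 without replicate 2 or with each experiment reduced to 1 mean, 6 without replicate 1 and 7 without the no LPS array of replicate 2, and the higher count was 5 under median centring, with the filter at the 60th percentile and with a trended and robust prior. Idh2 differed by -0.68, Mdh1 by -0.45, Sdhd by -0.42 and Fh1 by -0.34, all enzymes or subunits of the cycle, and Dlst by 0.42. Of 24 glycolysis and related genes 5 rose (20.8%), 4 fell (16.7%) and 15 did not pass, shares close to the 17.5% and 22% of all genes. Under median centring 9 rose, and 2 fell without replicate 1 or replicate 2. Hexokinase 2 (Hk2) had 8.80, 9.09 and 9.37 with LPS and HDHEA, against 7.86, 7.79 and 7.46 without LPS. The sugar transporter genes Slc2a6 (0.80) and Slc2a1 (0.62) and Hk3 (0.61) rose. Pdk1, which holds pyruvate back from the cycle, fell by 0.69 (-0.10 for a dimmer second probe set).

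Of 28 inflammasome and cell death genes 17 rose (60.7%) and 6 fell (21.4%), or 3 fell without replicate 3. Nlrp3, an inflammasome sensor gene, had 9.52, 9.66 and 9.81 with LPS and HDHEA, against 7.83, 7.28 and 7.83 without LPS. The death receptor gene Fas rose by 2.07, the necroptosis effector gene Mlkl by 1.45 and Casp4, the caspase (caspase-11 in mouse) that binds LPS inside cells, by 1.40. Bcl2a1a, a survival gene with near-identical copies that may share its probes, rose by 3.85. Of 29 unfolded protein and integrated stress genes 14 rose (48.3%), 3 fell and 12 did not pass. Only 1 fell under median centring, without the block or without replicate 1 or replicate 3. The phosphatase subunit gene Ppp1r15a rose by 1.41, the stress gene Nupr1 by 1.19, the chaperone gene Dnajb9 by 0.96, the sensor gene Ern1 by 0.91 and asparagine synthetase (Asns) by 0.67.

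Neighbouring genes moved together at 6 places where at least 4 genes next to each other among those tested changed at least 2-fold the same way. Genes at these places were picked by that rule after their values were seen, and their differences are as measured, with no LPS values below the 40th percentile for Sprr2d to Sprr2h, Gbp4 and Gbp11 and treated values below it for H4c17. On chromosome 3, 6 small proline-rich genes, Sprr2d to Sprr2j-ps, were higher by 2.26 to 5.67. Sprr2g had 5.71, 6.27 and 6.97 with LPS and HDHEA, against 2.09, 1.79 and 1.61 without LPS. They are known as cornified envelope genes of skin, and their sequences are alike enough that probes may be shared, so the single values are uncertain. Guanylate-binding proteins formed a run on chromosome 3 (Gbp5, Gbp7, Gbp3 and Gbp2b, 3.22 to 4.27) and another on chromosome 5 (Gbp9, Gbp4, Gbp10 and Gbp11, 1.65 to 2.64), with the same limit. On chromosome 17 the myeloid receptor genes Trem1 (2.32), Trem3 (2.21) and Treml4 (1.13) stood beside A530064D06Rik (1.33). On chromosome 11 the chemokine genes Ccl3 and Ccl4 adjoined Wfdc17, a whey acidic protein domain gene, which had 11.09, 11.20 and 11.38 with LPS and HDHEA, against 7.97, 8.005 and 9.09 without LPS, and Wfdc18 (1.32). Histone genes on chromosome 13 made up the lower run: H1f5 (-2.35), H4c17 (-1.76), H4c12 (-1.48) and H2bc14 (-1.29).

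**Figure D4:**
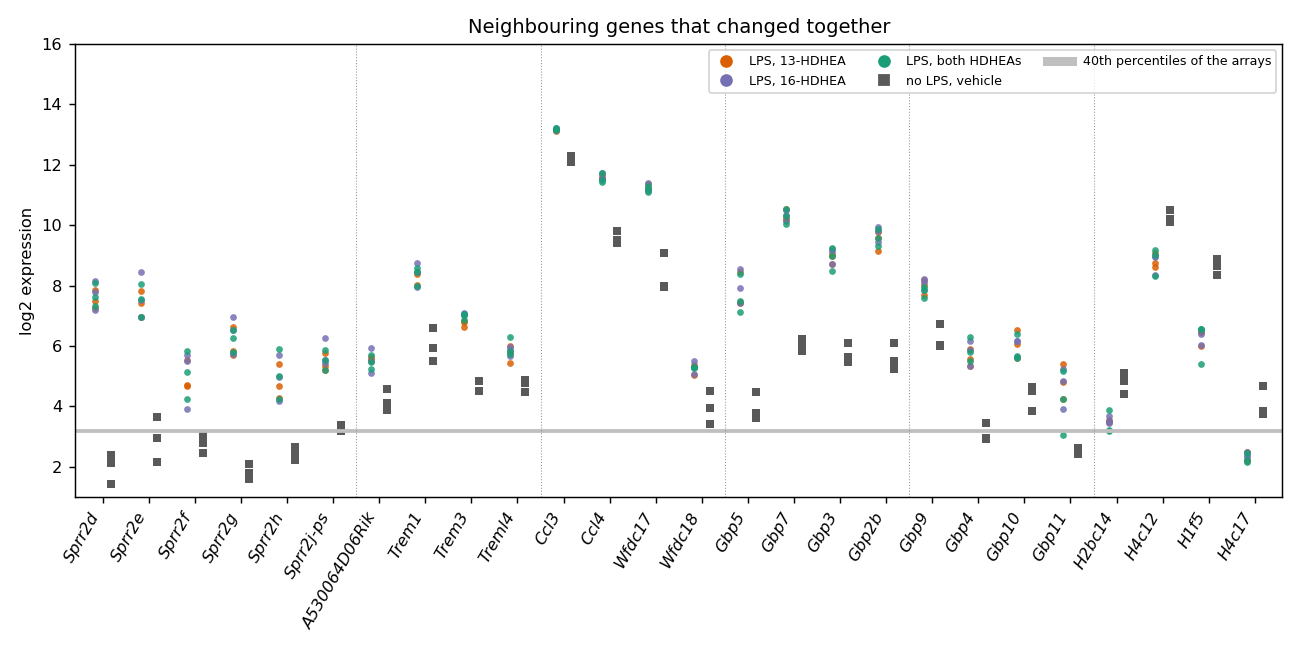
Log2 expression on each array for the genes of the 6 runs of neighbours, separated by dotted lines; coloured circles are the 9 arrays with LPS and HDHEA, grey squares the 3 no LPS arrays, and the grey band spans the 40th percentiles of the arrays. The first 5 runs lie above their squares and the histone run, at the right, below them, and the Sprr2, Gbp5 and Gbp11 circles spread most.

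Of 216 microRNA genes tested, 16 were higher (7.41%) and 7 lower (3.24%), beside 17.5% and 22% of all genes. Of 14 listed microRNA and small RNA host genes 5 rose (35.7%) and 1 fell (7.14%), and the higher count was 2 without replicate 3 and 3 without replicate 1 or with each experiment reduced to 1 mean. The lower count was 3 without the no LPS array of replicate 1 and with a trended and robust prior, and 2 without replicate 1 of 13-HDHEA or replicate 2 of both. The arrays read the precursor or host transcript and not the mature microRNA. Mir221 and Mir222, which lie beside each other and are known as regulators of cell cycle inhibitors, share a seed. Mir221 had 4.602, 5.12 and 5.38 with LPS and HDHEA, against 3.98, 4.57 and 4.66 without LPS, and Mir222 had 3.32, 3.63 and 4.17, against 3.12, 3.48 and 3.01 without LPS, so that both overlapped between the groups. Their differences of 0.64 and 0.48 passed (adjusted p = 0.00993 and 0.0189 in limma), but without the no LPS array of replicate 1 the first did not (adjusted p = 0.0800) and without that of replicate 3 the second did not (0.117). Mir483 (1.77, with 6.27, 6.69 and 6.99 in treated cells and 4.50, 4.94 and 5.25 without LPS) and Mir5124a (at least 1.65-fold) were the microRNA genes that changed 2-fold or more on the measured scale, and were named after their values were seen. Mir19a, of the Mir17 cluster, which promotes proliferation, was at least 1.65-fold lower. The phosphatase gene Ptprj, on the same list, rose by 0.83 and the long noncoding RNA gene Morrbid by 0.67. The mature sequences of these precursors, 3′ arms where both are known, are given from RefSeq for GRCm38.p6 with the seed in capitals, to show the shared seed of the first pair.
mmu-miR-221-3p: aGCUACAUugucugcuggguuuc
mmu-miR-222-3p: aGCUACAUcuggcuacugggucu
mmu-miR-483-3p: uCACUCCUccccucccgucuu
mmu-miR-5124a: gGUCCAGUgacuaagagcau
mmu-miR-19a-3p: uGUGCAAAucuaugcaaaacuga
The seed GCUACAU is the same in miR-221-3p and miR-222-3p and in no other of the 5.

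The 3 treatments were each set against the same no LPS arrays. LPS with 13-HDHEA differed from no LPS in 5094 genes (33.5%), LPS with 16-HDHEA in 5058 (33.3%) and LPS with both in 5004 (32.9%). Over the 493 genes at least 2-fold higher the median difference was 1.53 with 13-HDHEA, 1.57 with 16-HDHEA and 1.56 with both, and over the 519 lower ones -1.42, -1.41 and -1.36. Il6, which lay below the 40th percentile without LPS, differed from no LPS by a measured 8.07 with 13-HDHEA, 8.25 with 16-HDHEA and 8.19 with both. Tnf differed by 2.49, 2.51 and 2.50 in the same order, Cnr2 by -1.41, -1.42 and -1.53, and Cxcr4 by -3.41, -3.42 and -3.40.

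13-HDHEA and 16-HDHEA were compared at 5.0 µM each, and the combined treatment holds 2.5 µM of each. Across the 3 treatments no gene was called (0%) by the F test of limma, with 679 genes (4.47%) at an unadjusted p under 0.05. Of the 3 pairs, 16-HDHEA minus 13-HDHEA called 0 genes (0%, 643 at an unadjusted p under 0.05), both minus 13-HDHEA 0 (0%, 729 unadjusted) and both minus 16-HDHEA 0 (0%, 577 unadjusted). The differences between the isomers lay between -0.23 and 0.22 for the middle 90% of genes, and their unadjusted 95% intervals reached a median of 0.24 to each side, which is narrower than the limit for a call after adjustment over all genes. For Tnf, 16-HDHEA minus 13-HDHEA was 0.023 (95% interval -0.15 to 0.19), for Ptgs2 0.044 (-0.21 to 0.30), for Nos2 -0.0055 (-0.37 to 0.36) and for Il6 0.18 (-0.02 to 0.38). These intervals bound the differences but do not show that the isomers act alike.

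**Figure D5:**
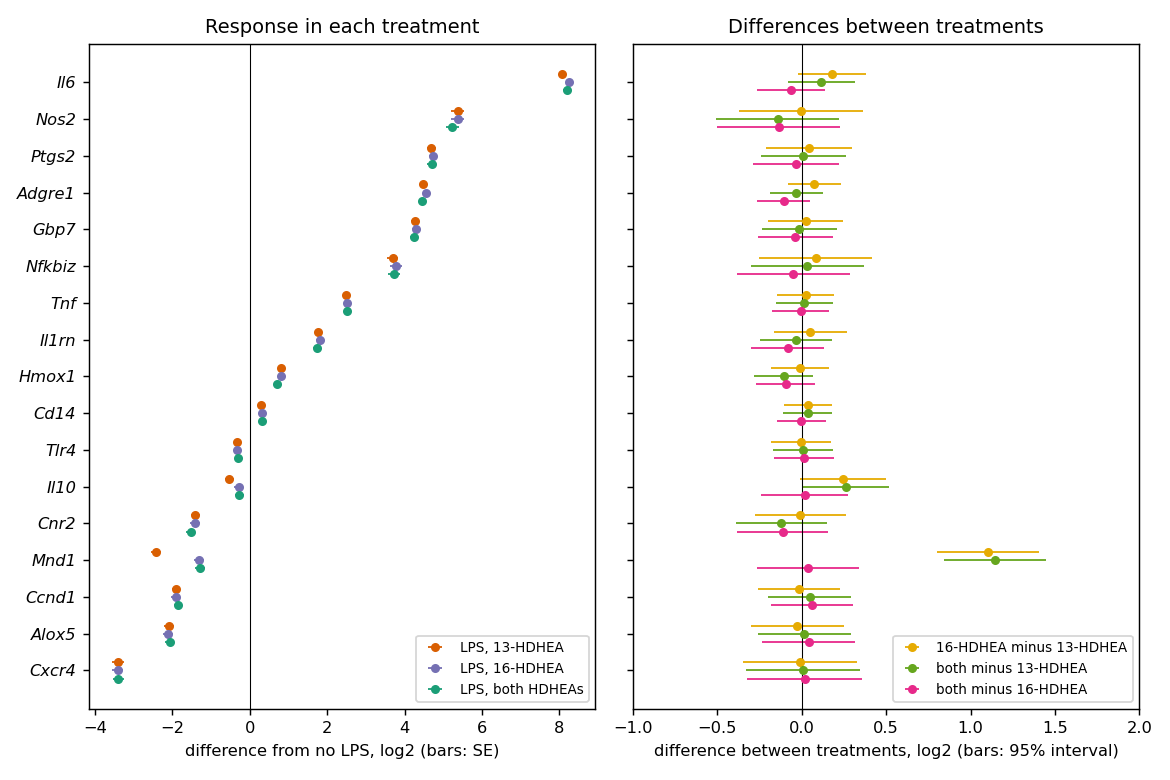
For 17 genes, the log2 difference of each treatment from the same no LPS arrays (left, as measured, bars are SE) and the log2 differences between treatments (right, bars are 95% intervals). The left points of a gene nearly coincide except for Mnd1, where 16-HDHEA and both lie at -1.32 and -1.28 and 13-HDHEA, below the 40th percentile, at a measured -2.43 (at least 2.14 below no LPS).

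Mnd1, a meiotic recombination gene whose product works with Psmc3ip, had the smallest p between treatments and is named after its values were seen. In replicates 1, 2 and 3 it had 3.88, 4.10 and 4.10 with 16-HDHEA, 3.86, 4.10 and 4.23 with both and 3.13, 2.79 and 2.85 with 13-HDHEA, against 5.23, 5.54 and 5.27 without LPS. The 13-HDHEA arrays lay below all others, and below the 40th percentile, and the value 4.10 is the same to all deposited digits on 3 arrays (replicates 2 and 3 of 16-HDHEA and replicate 2 of both). 16-HDHEA minus 13-HDHEA was at least 0.82, taken from that percentile (1.11 as measured), in a gene picked as the most extreme of 15205, and the F test did not pass (adjusted p = 0.219 in limma). It passed without the block (adjusted p = 0.0337), with all 15 arrays (0.0285), with a trended and robust prior (0.0490) and without replicate 1 of 13-HDHEA (0.0269).

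The mean of the HDHEA treatments was also set against LPS with vehicle, in 1 fit of all 15 arrays with the block. No gene was called (0%), and 850 (5.59%) had an unadjusted p under 0.05 in limma. The middle 90% of differences lay between -0.19 and 0.19, and the 95% intervals reached a median of 0.19 to each side. Without replicate 1 of 13-HDHEA, 2 genes were called, BC048679 (0.64) and Mnd1 (-0.66). The difference from the same no LPS arrays was 8.94 with LPS and HDHEA beside 8.92 with LPS and vehicle for Il1b, 2.50 beside 2.55 for Tnf, -3.41 beside -3.14 for Cxcr4 and -1.55 beside -1.62 for Mcm5. For Alox5 it was -2.09 with HDHEA beside -2.52 with vehicle. HDHEA minus vehicle was 0.43 for this gene, with a 95% interval of 0.21 to 0.65 that is not adjusted over the genes tested. It was not called (adjusted p = 0.645 in limma).

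By experiment, the median difference of the 493 higher genes was 1.60, 1.52 and 1.60 in experiments 1, 2 and 3, and that of the 519 lower genes -1.46, -1.37 and -1.39, a description only, since these genes were chosen on the mean of the same experiments. Across genes, which are not independent replicates, the differences of 2 experiments correlated at 0.874 to 0.880. Il1b differed by 8.82, 8.90 and 9.10 in the 3 experiments, Tnf by 2.58, 2.59 and 2.33, Cxcr4 by -3.04, -3.46 and -3.72, and Ccnb2 by -2.95, -2.37 and -2.57. Each no LPS array serves 3 arrays with HDHEA. With each experiment reduced to 1 mean, which also leaves fewer residual degrees of freedom, the comparison called 4786 genes rather than 6002, and 492 higher and 519 lower genes at 2-fold or more.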

How the data were processed

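Total RNA of RAW264.7 cells was labelled with an Affymetrix whole-transcript assay, per the labels' protocols. The values the authors deposited are log2 expression per probe set, made with RMA per the submitters' processing notes. RMA forces all arrays onto 1 distribution, which removes a change common to most genes, and it compresses changes of dim probe sets. Neither its version nor the chip definition is stated in the labels used here.

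Of 41345 probe sets, 23521 had 1 gene symbol in the platform's gene table, 1814 had several and 16010 were not listed there. Of the first, 23328 matched RefSeq's GRCm38.p6 genes by ID without a change of symbol. The probe set with the highest mean over all 15 arrays stood for a gene (22180 genes, 1082 with several probe sets). A gene was tested where it exceeded the 40th percentile of the array in at least 3 of the 12 arrays, which left 15205 and set aside 6975. A gene that passed only through the group where it is high had to differ, so counts over lists are descriptions. Where a group's mean lay below the mean 40th percentile of its arrays, the fold is a lower bound from that percentile.

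The fit used lmFit and eBayes of limma 3.58.1 (R 4.3.3) on 4 group means with experiment as a block, with 6 residual and 3.22 prior degrees of freedom. Tests were two-sided, with Benjamini-Hochberg adjustment over all genes tested, and the scripts were tested on simulated data. The block was used because same-numbered arrays come from 1 experiment, per the labels. Deviations from group means correlated at 0.0851 to 0.411 over the 18 same-numbered pairs. On these deviations all 12 arrays correlated best with an array of their own number. Arrays of the same group tend to correlate negatively there by construction, so this compares arrays of different groups only. Groups and replicates came from the sample titles. With 3 arrays in each group, their number sets the precision.

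The 37 gene lists (1032 symbols, 928 with a probe set, 874 tested), the 8 marker lists beside them, the groups and the tests were chosen with earlier results of these data known. Genes were named by a rule. It took the 15 largest called changes in each direction that had 1 sign in all 9 treated arrays (no predicted or RNA genes), then from each list the 5 members of lowest p at most, and in any case Adgre1, Ccl2, Cd14, Cnr2, Hmox1, Il10, Il1b, Il1rn, Il6, Nos2, Ptgs2, Tlr4 and Tnf. Promoter examples are the called member of the list with a match and the largest change in its direction, with members on 1 chromosome left out of the choice. Alternatives changed the block, the arrays, the filter, the scaling, the probe set rule, the prior and the call rule.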

Additional observations from a re-analysis of the deposited data

Results flagged for a closer look

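Among the 228 named genes, 1 of the 9 arrays with LPS and HDHEA stood apart from the other 8 in 12 genes, by Dixon's test at its 95% critical value, applied to the gap to the nearest array over the whole range. Chance alone flags about 1 in 20 such groups, and 12 of 228 is about that share, so no pattern is read from these. The 5 high values were Slc11a1 at 12.40 (both HDHEAs, replicate 1, the others up to 12.37), Stat2 at 9.45 (16-HDHEA, replicate 2, the others up to 9.28), Dnajb9 at 8.84 and Exo1 at 6.89 (both HDHEAs, replicate 3, the others up to 8.73 and 6.53) and Ccnd1 at 8.41 (both HDHEAs, replicate 2, the others up to 8.25). Low values were Mdh1 at 9.25 and Cd4 at 2.76 (13-HDHEA, replicate 2, the others from 9.42 and 2.97), Lpl at 9.34 (13-HDHEA, replicate 1, the others from 9.57), Brca1 at 5.78 (16-HDHEA, replicate 1, the others from 5.98), H1f5 at 5.41 and Flt3 at 2.90 (both HDHEAs, replicate 1, the others from 6.02 and 3.08) and Col1a1 at 3.56 (both HDHEAs, replicate 2, the others from 3.87). Of these genes Cd4, Col1a1 and Flt3 are dim on every array.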

How the results depend on the processing

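Without the replicate block the comparison of LPS and any HDHEA with no LPS called 5342 genes rather than 6002 (2338 higher and 3004 lower), the F test between treatments called 1 gene rather than 0, and the median SE was 0.101 rather than 0.0864. The block changed no other count of calls by over 1.5 times among the comparisons, and it moved lower counts of the LPS receptor, interferon regulatory and stress response lists as given above. The F test also called 1 gene, Mnd1 each time, with all 15 arrays in the fit and with a trended and robust prior, and 0 to 1 when single arrays or experiments were left out. Leaving these out gave 4390 to 5818 genes for the pooled comparison, 3478 to 5060 for 13-HDHEA, 3443 to 4999 for 16-HDHEA, and 3324 to 4956 for both HDHEAs, the lowest without replicate 3, where 2 experiments remain. HDHEA minus vehicle called 0 to 2 genes in the same way. Counts at 2-fold or more ran from 481 to 509 higher and 510 to 523 lower. Against a 1.5-fold change (limma treat) 1177 genes were called, 562 higher and 615 lower, since the test then asks for more than a difference from 0. No named gene that was called reversed its direction under any alternative run. Genes not called could do so: Mpo, at -0.014, lay nearer 0 than the 0.07 that median centring adds to every difference. Of the named genes, 29 alternative values lost a call and 18 gained one, and 91 counts of list members moved by over 1.5 times. Calls of genes near the 40th percentile rest on signals close to background, where RMA values are compressed.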
